A study of Mus musculus with 27 samples.

Results

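A set of 9 germline genes, out of the 51826 genes counted in each library, was followed in mouse embryonic stem cells and in the embryoid bodies grown from them: Dppa3, Dazl, Mael, Sycp1, Sycp3, Tex101, Slc25a31, Hormad1 and Stk31. They were chosen by name as genes of the germ line whose promoters are known to be silenced by DNA methylation in body tissues, and all 9 were found in the count files through their Ensembl identifiers. No methylation was measured in these libraries and the labels do not give the culture medium, so the data show transcript levels only. The series asks what STAR proteins, a family that binds RNA, do in early mammalian development. RNA was sequenced from the wild-type stem cell line E14 and from a pair of knockout (KO) lines on the same E14 background, 1 lacking Quaking (gene Qk) and 1 labelled as lacking Sam68 (gene Khdrbs1). Each line was sampled undifferentiated (day 0) and at days 3 and 10 of culture as embryoid bodies, which are clumps of differentiating stem cells. Each of the 9 groups has 3 replicates, which the labels call biological, and the total is 27 libraries. Each KO is 1 line, so the knockout and the clone cannot be told apart, and the labels number the libraries of the Sam68-labelled line in a run of their own, so that line and its library run cannot be told apart either.

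In the germ line most of these genes serve the pairing and repair of chromosomes in meiosis, the silencing of transposons by small RNAs, and the making of sperm. Elsewhere the CpG-rich promoters of such genes are held shut. The complex of MGA, MAX and E2F6 with Polycomb proteins binds E-box and E2F-type motifs in some of them. During implantation the methyltransferases DNMT3A and DNMT3B add DNA methylation that then stays. Mouse stem cells stand just before that step, carry little methylation in some culture media, and are known to transcribe such genes at low levels.

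The libraries held 56461674 to 77257496 counts, and levels are given as CPM, the count of a gene scaled to a common library total, as mean ± SD over 3 libraries. The labelled targets were checked: Qk was at 140 ± 5.88 CPM in Quaking KO stem cells against 213 ± 4.56 in wild type and was lower in that line on all 3 days, though its RNA was still present. Khdrbs1 RNA was at 96.0 ± 3.56 CPM in the libraries labelled Sam68 KO at day 0 against 89.7 ± 2.29 in wild type (log2 fold change −0.03 ± 0.04, edgeR adjusted p = 0.576). The RNA level at day 0 thus does not bear out the Sam68 label, and Khdrbs1 was lower in that line at day 3 (−0.70 ± 0.06, edgeR adjusted p = 1.15e-07) but not called at day 10 (−0.25 ± 0.13, edgeR adjusted p = 0.132). At day 0 it was the Quaking KO line that had less of it, 65.2 ± 4.92 CPM (−0.43 ± 0.04, edgeR adjusted p = 7.42e-08). Every direction below for that line is a direction of the libraries labelled Sam68 KO. Summed, stem cell markers were highest at day 0 and streak markers at day 3 in all 3 lines. The lines were not alike at day 3: all 5 streak markers were lower in the Sam68-labelled line than in wild type (37.1% of all genes), T at 9.29 against 266 CPM. In wild type 6 of 7 stem cell markers were lower at day 3 than at day 0 (30.1% of all genes), and Nanog was not called (422 against 395 CPM). In bulk RNA fewer cells that transcribe a gene and less RNA per such cell cannot be told apart.

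What the promoters share was read from the RefSeq promoter table of build GRCm38.p6, which holds 300 bases for a gene, 250 before its start site and 50 after it. It matched 8 of the 9 members, all but Dppa3. These 8 promoters held 15 to 28 CpG dinucleotides, with a median of 23, where the median over all 32851 promoters in the table was 7 and over the 20103 of protein-coding genes 14. The E-box searched was CACGTG, which reads the same on both strands. It occurred in 6 of the 8 promoters (Mael, Sycp1, Sycp3, Slc25a31, Hormad1 and Stk31) and in 7.15% of all promoters, or 8.04% of protein-coding ones. The E2F-type motif searched was GCGGGA or its reverse TCCCGC. It occurred in 5 of the 8 (the same genes without Stk31) and in 20% of all promoters, or 26.5% of protein-coding ones. Both motifs together were found in those 5 and in 1.99% of all promoters, or 2.73% of protein-coding ones. A match is a description of these letters only. Both motifs contain a CpG, and promoters of like CpG content were not compared. Dazl and Tex101 held neither motif in the window, and the Tex101 start site in RefSeq lies 4625 bases from the gene's outer start in the GENCODE annotation.

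The promoters of 6 genes are printed because they show what the rest of the results refer to: the 5 with both motifs, which include the gene that fell most by day 3 in wild type (Hormad1) and the one that fell least (Sycp3), and that of Dazl, which has the most CpG among them and neither motif. Each reads 5′ to 3′ on the strand of its gene, GRCm38.p6, and capitals mark the E-box and the E2F-type motif. The Hormad1 window is chr3:95559427-95559726 (plus strand), Sycp3 chr10:88459337-88459636 (plus), Slc25a31 chr3:40708621-40708920 (plus), Sycp1 chr3:102936051-102936350 (minus), Mael chr1:166238695-166238994 (minus) and Dazl chr17:50293571-50293870 (minus).
Hormad1: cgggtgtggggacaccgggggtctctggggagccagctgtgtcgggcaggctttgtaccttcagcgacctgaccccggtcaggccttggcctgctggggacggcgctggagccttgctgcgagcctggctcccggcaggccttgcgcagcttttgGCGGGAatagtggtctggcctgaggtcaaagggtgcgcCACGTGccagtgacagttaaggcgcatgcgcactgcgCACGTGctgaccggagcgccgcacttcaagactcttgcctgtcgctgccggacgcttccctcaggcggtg
Sycp3: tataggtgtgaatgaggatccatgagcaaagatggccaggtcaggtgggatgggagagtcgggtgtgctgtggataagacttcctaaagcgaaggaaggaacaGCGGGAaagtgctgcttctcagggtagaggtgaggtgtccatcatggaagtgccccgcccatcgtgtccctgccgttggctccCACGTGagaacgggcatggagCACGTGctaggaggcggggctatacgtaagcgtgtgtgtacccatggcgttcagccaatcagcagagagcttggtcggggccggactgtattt
Slc25a31: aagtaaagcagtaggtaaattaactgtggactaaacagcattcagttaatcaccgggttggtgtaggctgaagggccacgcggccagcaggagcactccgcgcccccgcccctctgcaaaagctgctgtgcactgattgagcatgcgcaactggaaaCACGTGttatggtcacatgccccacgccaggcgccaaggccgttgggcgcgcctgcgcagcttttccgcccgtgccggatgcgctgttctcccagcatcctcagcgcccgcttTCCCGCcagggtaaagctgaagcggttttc
Sycp1: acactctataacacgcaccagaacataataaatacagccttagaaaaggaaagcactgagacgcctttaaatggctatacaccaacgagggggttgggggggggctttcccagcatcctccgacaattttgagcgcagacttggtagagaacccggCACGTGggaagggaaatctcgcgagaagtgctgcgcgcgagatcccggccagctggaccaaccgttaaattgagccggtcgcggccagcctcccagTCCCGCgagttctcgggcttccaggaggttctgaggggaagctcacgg
Mael: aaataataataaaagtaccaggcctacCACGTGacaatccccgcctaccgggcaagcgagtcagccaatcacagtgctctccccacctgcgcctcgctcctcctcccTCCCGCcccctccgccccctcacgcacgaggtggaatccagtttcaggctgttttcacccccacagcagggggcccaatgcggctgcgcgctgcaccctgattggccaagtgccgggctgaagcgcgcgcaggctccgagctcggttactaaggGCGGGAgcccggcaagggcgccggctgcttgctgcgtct
Dazl: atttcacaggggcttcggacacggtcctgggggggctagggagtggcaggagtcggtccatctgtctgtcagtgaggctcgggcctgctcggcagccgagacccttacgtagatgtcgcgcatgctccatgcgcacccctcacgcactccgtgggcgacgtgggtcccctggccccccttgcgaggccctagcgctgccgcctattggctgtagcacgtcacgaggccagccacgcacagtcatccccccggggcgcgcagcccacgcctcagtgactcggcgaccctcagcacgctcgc

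In Hormad1 the E-boxes began 57 and 20 bases before the start site and the E2F-type motif 95 bases before it. In Sycp3 the E-boxes began 64 and 43 bases before the start and the E2F-type motif 147 bases before. Sycp1 and Slc25a31 were laid out alike, with an E-box 94 and 93 bases before the start and the E2F-type motif just after it, at bases 3 and 21. Mael differed in having its E-box far out, 223 bases before the start, and 2 E2F-type motifs.

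**Figure D1:**
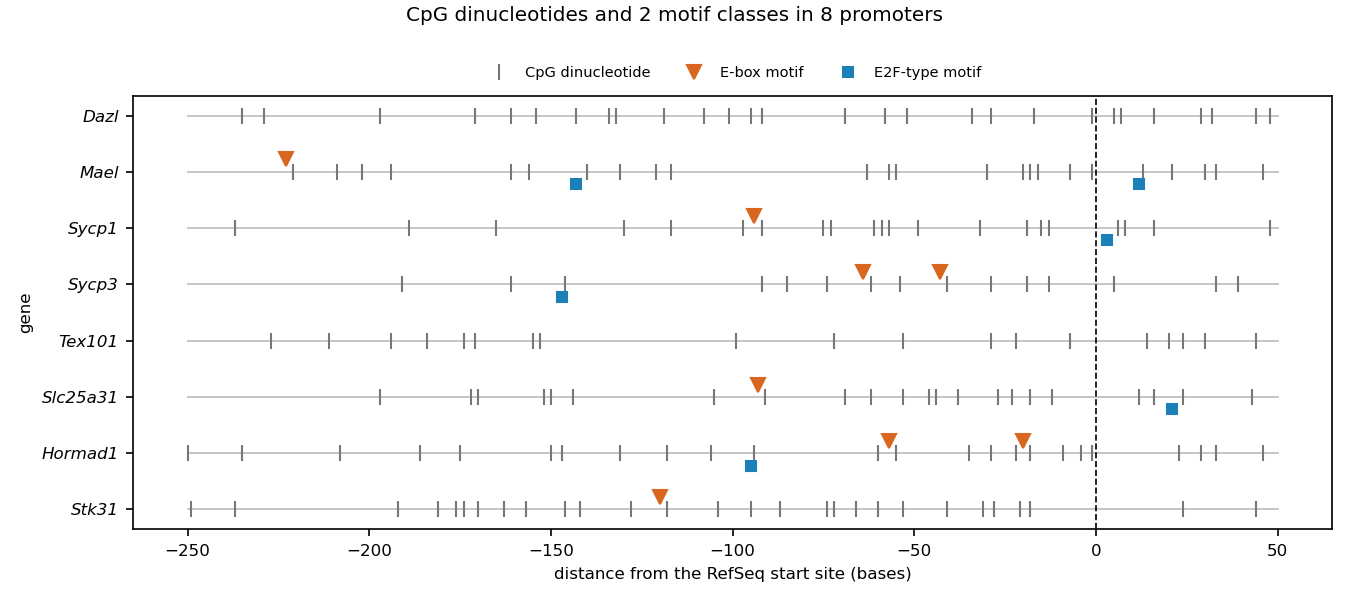
Positions of CpG dinucleotides (grey ticks), E-box motifs (orange triangles) and E2F-type motifs (blue squares) in 8 promoters, by distance from the RefSeq start site in bases (x axis), 1 row per gene. E-boxes lie within 120 bases of the start site in 5 genes and 223 bases before it in Mael.

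All 9 genes were transcribed in wild-type stem cells, over a wide range. Per kilobase of exon, the only scale on which genes are compared, Sycp3 stood highest at 24.6 CPM per kb, then Hormad1 at 15, Mael at 9.34, Stk31 at 5.93, Dazl at 3.63, Dppa3 at 3.44, Slc25a31 at 1.92, Sycp1 at 1.34 and Tex101 at 0.335. Dazl and Dppa3 were neighbours in that order whose levels lay within the spread of the libraries; the SD of Dppa3 was 0.387 CPM per kb. Every member was lower at day 3 than at day 0 in wild type and lower again or alike at day 10: 9 of 9 were called lower at day 3, where 30.1% of all genes tested were, and 9 of 9 at day 10, where 39.4% were. All 9 passed the filter on low counts in these fits. Tex101, with 33 to 40 counts a library at day 0 and 9 to 13 at day 3, lay closest to its minimum of 10. At day 10 Sycp1 (4 to 10 counts a library), Slc25a31 (4 to 7) and Tex101 (1 to 5) did not reach that level in all 3 libraries. They passed through earlier days, where they were higher, so their day 10 calls could only be lower or absent. Tex101 passed through day 0 alone, which bound its day 3 call in the same way. A gene is called at an edgeR adjusted p under 0.05 over all genes tested, and fold changes are log2 values with their standard error.

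Dppa3 (ENSMUSG00000046323, chr6:122626410-122630272, plus strand) encodes Stella, which shields the maternal genome of the zygote from loss of methylation and marks early germ cells. Wild-type stem cells held 2.70, 3.39 and 3.11 CPM, embryoid bodies 0.977, 0.549 and 0.681 at day 3 and 0.527, 0.974 and 1.15 at day 10. All 3 stem cell libraries lay above all 6 later ones, and days 3 and 10 overlapped. The level fell by 2.15 ± 0.25 on the log2 scale at day 3 (edgeR adjusted p = 6.15e-06) and 28.8% of the day 0 level was left at day 10. Of its 50-base sequence windows, 16.5% also occur in other genes, mainly the pseudogene Dppa3-ps, so reads could be split.

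Dazl (ENSMUSG00000010592, chr17:50279395-50293636, minus strand) encodes an RNA-binding protein that lets germ cells enter gametogenesis. It went from 14.3, 13.7 and 13.6 CPM at day 0 to 2.35, 2.46 and 2.66 at day 3 and to 0.392, 0.720 and 0.939 at day 10. The 3 days did not overlap, and 17.9% of the day 0 level was left at day 3 and 4.93% at day 10.

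Sycp1, Sycp3 and Hormad1 build the meiotic chromosome: SYCP1 forms the transverse filaments of the synaptonemal complex, SYCP3 its lateral elements, and HORMAD1 sits on unpaired axes and promotes the breaks and pairing that meiosis needs. Hormad1 (ENSMUSG00000028109, chr3:95559677-95587671, plus strand) had 24.1, 28.0 and 25.9 CPM at day 0, 0.722, 0.694 and 0.503 at day 3, and 0.256, 0.296 and 0.336 at day 10. It fell furthest of the 9, by 5.44 ± 0.13 at day 3 (edgeR adjusted p = 1.12e-12), which left 2.46% of its stem cell level. Pseudogenes, mainly Gm15529, share 22.9% of its windows. Sycp1 (ENSMUSG00000027855, chr3:102818499-102936100, minus strand) fell from 4.55, 5.24 and 4.48 CPM to 0.526, 0.694 and 0.533 at day 3 and to 0.0602, 0.141 and 0.140 at day 10. Its days did not overlap, and pseudogenes and noncoding RNAs share 5.47% of its windows.

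Sycp3 (ENSMUSG00000020059, chr10:88459569-88473236, plus strand) fell late. It had 29.2, 33.3 and 30.9 CPM at day 0, 22.8, 21.3 and 22.1 at day 3, and 2.85, 3.15 and 3.43 at day 10. Day 3 lay below day 0 in every library, yet 70.9% of the level was kept, and the fall to 10.1% came by day 10. The gene lies inside Chpt1, a phospholipid synthesis gene on the other strand, which holds 43.0% of its windows; the strand setting of the counting is not given in the sources used here, so Sycp3 values are uncertain to that extent. Chpt1 itself stood at 11.4 CPM at day 0, 13.2 at day 3 and 22.7 at day 10 in wild type, and was called higher at day 10 (0.76 ± 0.08).

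Mael and Stk31 belong to the germ granule and the small RNA pathway that silences transposons: MAEL is needed for piRNA-guided silencing and STK31 is a Tudor-domain protein of male germ cells. Mael (ENSMUSG00000040629, chr1:166201201-166238747, minus strand) went from 15.5, 16.9 and 16.3 CPM to 3.52, 3.54 and 4.16 and then to 0.241, 0.268 and 0.406. Stk31 (ENSMUSG00000023403, chr6:49395604-49469501, plus strand) went from 18, 19.8 and 19.8 CPM to 2.15, 2.08 and 2.22 and then to 0.271, 0.409 and 0.378. In both the days did not overlap, and under 2% of the day 0 level was left at day 10 (1.89% and 1.84%).

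Tex101 and Slc25a31 act late in the germ line. TEX101 is a surface protein of sperm precursors needed for fertilisation, and SLC25A31 is the germ cell form of the mitochondrial ADP/ATP carrier. Slc25a31 (ENSMUSG00000069041, chr3:40708855-40726096, plus strand) had 4.22, 4.10 and 3.92 CPM at day 0, 0.391, 0.463 and 0.459 at day 3, and 0.0602, 0.0565 and 0.0981 at day 10. Tex101 (ENSMUSG00000062773, chr7:24668007-24676675, minus strand) was the lowest member, with 0.597, 0.493 and 0.574 CPM at day 0, 0.150, 0.130 and 0.192 at day 3, and 0.0151, 0.0706 and 0.0561 at day 10. The lowest of these day 10 values is 1 read. For each gene the days did not overlap, though at such counts the number of reads sets the precision.

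**Figure D2:**
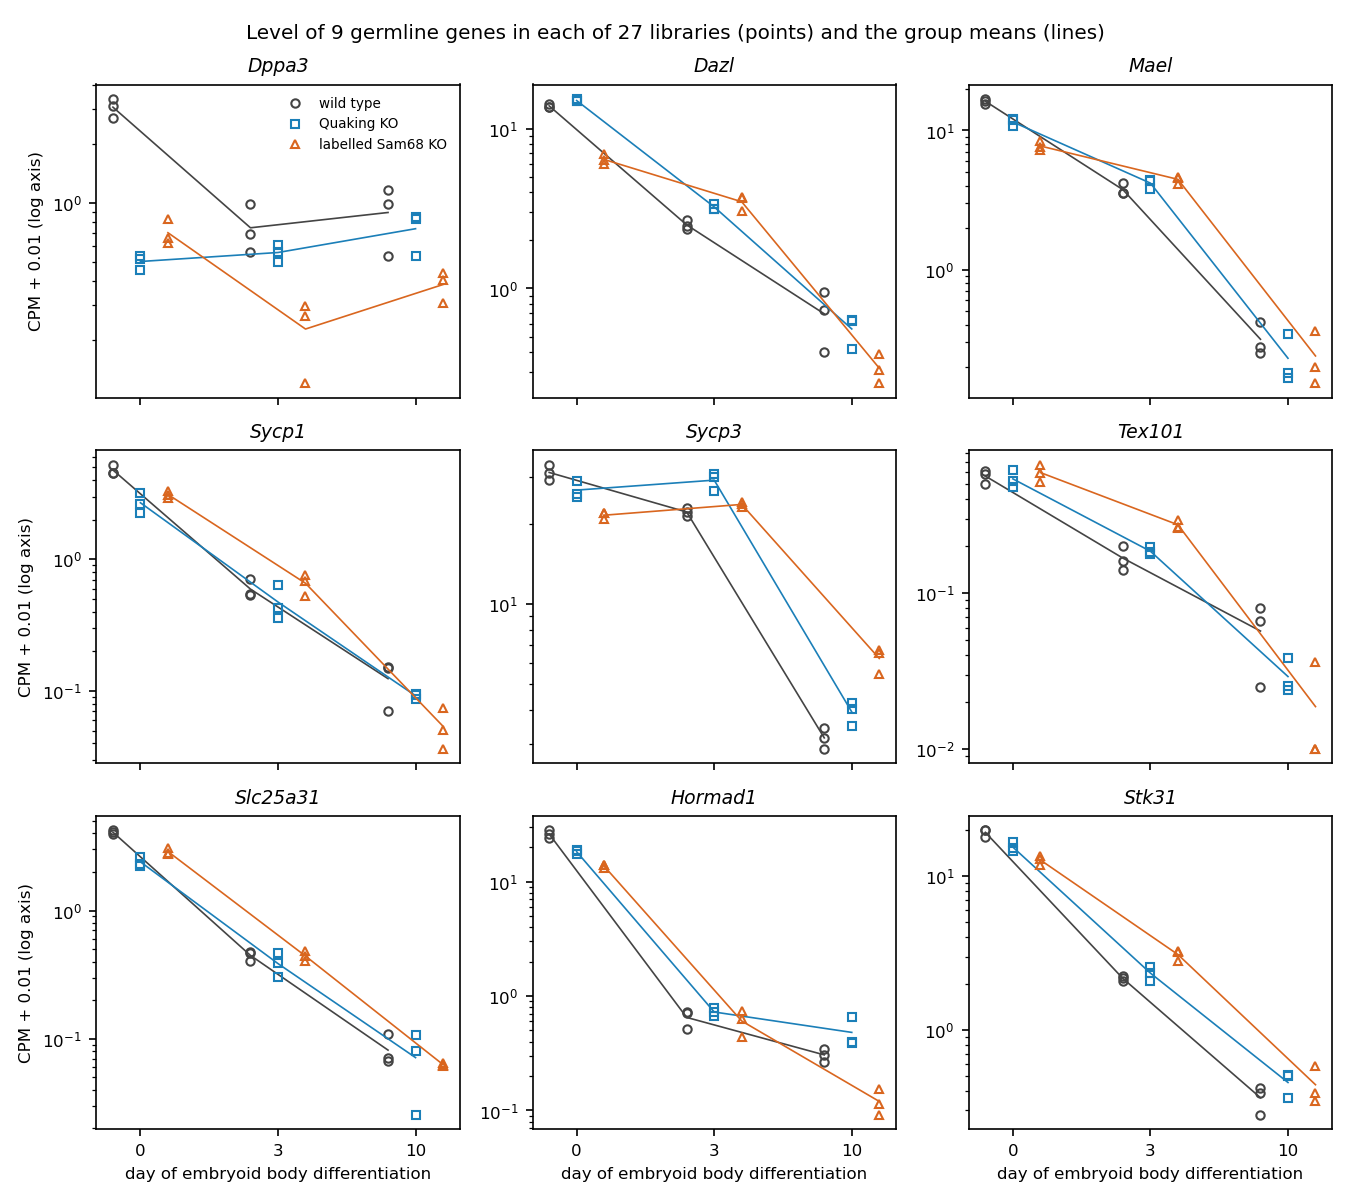
CPM plus 0.01 of each of the 9 genes on a log axis (y) by day (x) in all 27 libraries; grey circles are wild type, blue squares Quaking KO, orange triangles the line labelled Sam68 KO, and lines join the group means. Dppa3 is the gene whose KO values at day 0 lie far below wild type, and Sycp3 the one that holds its level to day 3.

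At day 3 the mean share of the day 0 level that was left was above that of wild type for each of the 9 members in both KO lines. The test of that difference, the interaction of line and day, did not call all of them. It called 4 of 9 higher in Quaking KO (5.18% of all genes) and 6 of 9 in the Sam68-labelled line (13.9%). In Quaking KO 7 of 9 members were called lower at day 3 (34.8% of all genes) and 8 of 9 at day 10 (40.5%), and in the Sam68-labelled line 8 of 9 at day 3 (35.9%) and 9 of 9 at day 10 (43.1%). The exceptions at day 3 were Sycp3 in both lines and Dppa3 in Quaking KO, and at day 10 Dppa3 in Quaking KO. At day 10 Sycp1, Slc25a31 and Tex101 had fewer than 10 counts in every library of both KO lines. Hormad1 had 6 to 11 in the Sam68-labelled line. These genes passed the filter there through earlier days, so their day 10 calls could only be lower or absent. Sycp3 was at 109% of its day 0 level at day 3 in Quaking KO (0.01 ± 0.08, edgeR adjusted p = 0.952) and at 109% in the Sam68-labelled line (0.10 ± 0.06, edgeR adjusted p = 0.168). Dppa3 in Quaking KO, already low as stem cells at 0.506, 0.527 and 0.442 CPM, had 0.552, 0.490 and 0.603 at day 3 and 0.838, 0.528 and 0.819 at day 10. These 9 libraries lay close together, at the level of wild-type embryoid bodies; without replicate 2 of day 10 the day 10 level was called higher than day 0 (0.52, edgeR adjusted p = 0.0356, against 0.34 ± 0.21 and 0.147 with all libraries). At day 10 the shares lay on both sides of wild type. Tex101 had 8.52% left in wild type, 3.62% in Quaking KO and 1.49% in the Sam68-labelled line. These shares rest on 10, 4 and 2 reads summed over each group at day 10. The Sam68-labelled mean, 0.00873 CPM, is under the 0.0132 CPM that 3 counts over that group make. In that line Sycp1 (1.42% against 2.39%, on 10 and 24 reads) and Hormad1 were also below wild type. Hormad1 again fell furthest, to 3.94% in Quaking KO and 4.38% in the Sam68-labelled line at day 3.

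**Figure D3:**
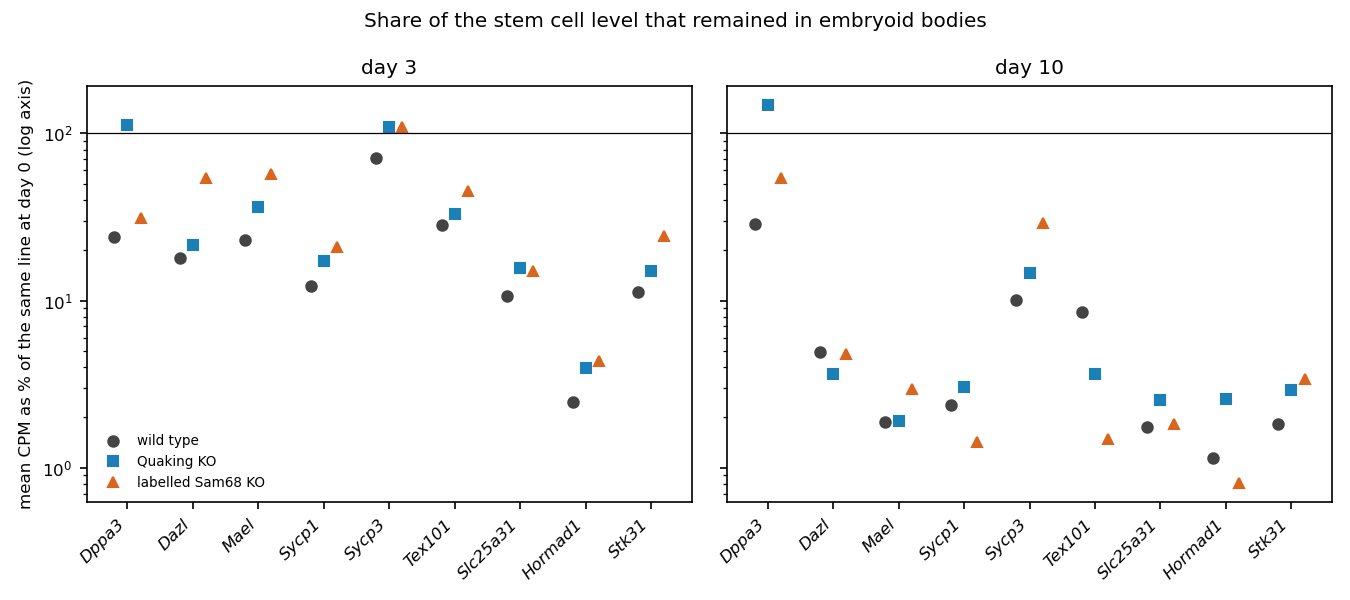
Mean CPM at day 3 (left) and day 10 (right) as a percentage of the mean in the same line at day 0, on a log axis (y), for each of the 9 genes (x); grey circles wild type, blue squares Quaking KO, orange triangles the Sam68-labelled line. At day 3 each KO mean stands above the wild-type mean of its gene. At day 10 Dazl and Tex101 lie below it in both KO lines, and Sycp1 and Hormad1 in the Sam68-labelled line. Tex101 at day 10 rests on 10 reads in wild type, 4 in Quaking KO and 2 in the Sam68-labelled line. The horizontal line is 100%.

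Against wild type, most members were lower in the stem cells of both KO lines. In Quaking KO 7 of 9 were called lower, where 20.3% of all genes tested were, and 1, Dazl, higher, where 19.4% were. In the Sam68-labelled line 8 of 9 were called lower (37.9% of all genes) and none higher by edgeR or DESeq2, or at an unadjusted p under 0.05 (36.5% of all genes were called higher). The median log2 fold change over the members was −0.46 in Quaking KO, against 0.00 over all genes, and −0.74 in the Sam68-labelled line, against −0.01. Both comparisons share the 3 wild-type libraries. On the total-count scale the median gene of the Sam68-labelled line stood 0.12 above wild type at day 0, a shift that the TMM scaling of the fits takes out, so fold changes are read against it.

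Dppa3 differed most. Quaking KO stem cells had 0.506, 0.527 and 0.442 CPM and the Sam68-labelled ones 0.612, 0.816 and 0.655, against 2.70, 3.39 and 3.11 in wild type. Neither KO line overlapped wild type, and the means were 16.0% and 22.6% of it. The fold changes were −2.61 ± 0.15 (edgeR adjusted p = 7.23e-11) and −2.26 ± 0.14 (edgeR adjusted p = 4.45e-11). Dppa3 lies between Gdf3, 16322 bases before it, and Nanog, 77216 bases after it, both pluripotency genes. They did not move with it in Quaking KO, where Nanog was called higher (0.49 ± 0.03) and Gdf3 was not called (0.08 ± 0.03), but both were lower in the Sam68-labelled line (−0.85 ± 0.03 and −0.78 ± 0.03).

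Dazl moved in opposite directions in the 2 lines. Quaking KO held 14.8, 14.9 and 15.4 CPM and the Sam68-labelled line 6.90, 6.0 and 6.32, against 14.3, 13.7 and 13.6. The Sam68-labelled libraries lay at 46.2% of wild type (−1.24 ± 0.06, edgeR adjusted p = 1.68e-12). The Quaking KO rise was 0.15 ± 0.05 (edgeR adjusted p = 0.0376), all 3 libraries being above wild type by little; it was lost when replicate 1 or 3 of Quaking KO or replicate 2 or 3 of wild type was left out (edgeR adjusted p 0.0781 to 0.119), in the fit of all 27 libraries (0.386) and with a replicate block on 6 libraries (0.0607).

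The meiotic chromosome genes were all lower. Hormad1 had 17.5, 18.3 and 18.7 CPM in Quaking KO (69.9% of wild type, −0.49 ± 0.05) and 13.8, 13.0 and 13.9 in the Sam68-labelled line (52.2%, −1.06 ± 0.05), with no overlap with wild type in either. Sycp1 had 3.18, 2.62 and 2.24 CPM in Quaking KO (−0.80 ± 0.11) and 3.09, 2.92 and 3.28 in the Sam68-labelled line (−0.74 ± 0.11), again without overlap. Sycp3 had 25.2, 25.9 and 28.9 CPM in Quaking KO and 21.9, 20.8 and 21.9 in the Sam68-labelled line. Its Quaking KO difference was small (−0.19 ± 0.05, edgeR adjusted p = 0.00339) and was not called in the fit of all 27 libraries (−0.18, 0.089); the Sam68-labelled one was −0.66 ± 0.05. Chpt1, which overlaps it, was called higher in Quaking KO (0.36 ± 0.05) and lower in the Sam68-labelled line (−0.55 ± 0.05).

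In the small RNA group Mael had 12.1, 11.8 and 10.7 CPM in Quaking KO (−0.46 ± 0.06) and 7.23, 8.33 and 7.60 in the Sam68-labelled line (−1.19 ± 0.06). Stk31 had 14.5, 15.1 and 16.6 CPM (−0.29 ± 0.06) and 12.9, 13.5 and 11.8 (−0.72 ± 0.06). No KO library of these genes reached the wild-type range. Slc25a31 had 2.32, 2.23 and 2.62 CPM in Quaking KO (−0.74 ± 0.09) and 3.06, 2.82 and 2.76 in the Sam68-labelled line (−0.63 ± 0.09), all below wild type. Tex101 was the member without a call in either line, at 0.474, 0.512 and 0.610 CPM and 0.660, 0.510 and 0.584 against 0.597, 0.493 and 0.574. Its libraries overlapped, and the 95% intervals of the difference, −0.42 to 0.36 in Quaking KO and −0.43 to 0.34 in the Sam68-labelled line, hold changes of the size seen in Stk31 in Quaking KO.

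Other markers moved at day 0 too. Of the 8 two-cell-like markers tested, genes of the totipotent-like state that a few stem cells enter, 7 were lower in Quaking KO (20.3% of all genes) and 8 in the Sam68-labelled line (37.9%). Their summed level was 16.3 to 26.1 CPM in wild type, 8.12 to 13.2 in Quaking KO and 1.92 to 2.43 in the Sam68-labelled line, and none of the 9 matched was at 0. Of 7 stem cell markers 5 were higher in Quaking KO (sum 3620 to 3930 CPM against 3310 to 3500), where 19.4% of all genes were. In the Sam68-labelled line 6 were lower (sum 2660 to 2750 CPM), where 37.9% of all genes were. Extraembryonic endoderm markers summed to 147 to 153 CPM in the Sam68-labelled line against 33.0 to 34.7 in wild type and 23.0 to 23.2 in Quaking KO. Of the 4 tested, 3 were higher in the Sam68-labelled line (Gata4, Gata6 and Sox7) and Apob was lower (−0.40 ± 0.10). Of all genes, 36.5% were higher and 37.9% lower there. In Quaking KO 3 of the 4 were lower (20.3% of all genes). Their part in the result was not tested.

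At day 3 few members were called in either KO line. In Quaking KO no member was called lower (3.93% of all genes were) by edgeR or DESeq2, or at an unadjusted p under 0.05, and 2 were called higher, Dazl and Sycp3 (3.08% of all genes). In the Sam68-labelled line Dppa3 was lower (37.1% of all genes) and Dazl and Stk31 were higher (36.0%), shares that leave the members' count of higher calls below the background. Sycp3 in Quaking KO had 30.7, 30.0 and 26.5 CPM against 22.8, 21.3 and 22.1, with no overlap (0.43 ± 0.06, edgeR adjusted p = 0.0006). Dazl had 3.15, 3.14 and 3.39 CPM in Quaking KO and 3.05, 3.69 and 3.71 in the Sam68-labelled line against 2.35, 2.46 and 2.66. Both lines lay above wild type by 0.40 ± 0.11; the Quaking KO call (edgeR adjusted p = 0.0336) was lost whichever of the 6 libraries was left out (0.0567 to 0.109) and in the fit of all 27 (0.108).

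Stk31 had 3.20, 2.78 and 3.25 CPM in the Sam68-labelled line against 2.15, 2.08 and 2.22 (0.43 ± 0.12, edgeR adjusted p = 0.00462), without overlap. Dppa3 stayed low there, at 0.286, 0.256 and 0.110 CPM against 0.977, 0.549 and 0.681 (−1.84 ± 0.31, edgeR adjusted p = 6.11e-05), while Quaking KO overlapped wild type (−0.39 ± 0.25, interval −0.89 to 0.10). Tex101 in the Sam68-labelled line lay above wild type in each library, at 0.286, 0.256 and 0.252 CPM against 0.150, 0.130 and 0.192, but missed the threshold (0.65 ± 0.28, edgeR adjusted p = 0.0561); without replicate 3 of wild type it was called (0.81, 0.0453). The other members had no call in either line. The streak markers, summed, were at 182 to 235 CPM in the Sam68-labelled line, 449 to 722 in Quaking KO and 635 to 924 in wild type at day 3, and their part in these differences was not tested.

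**Figure D4:**
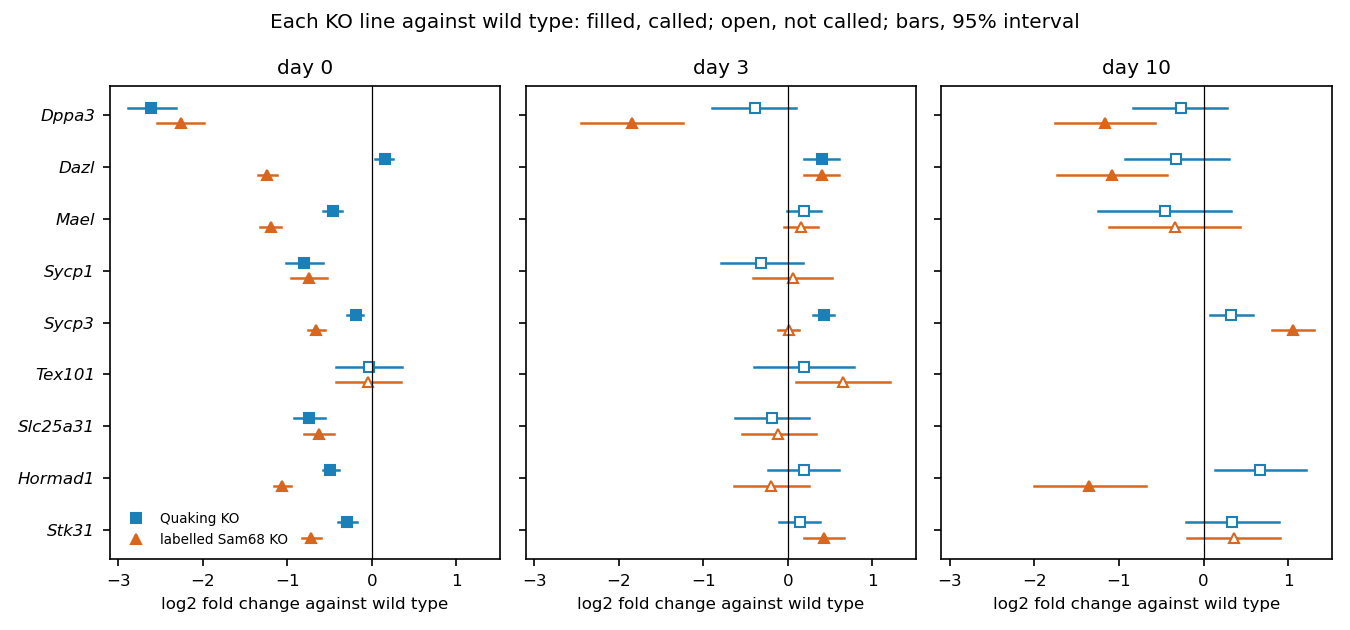
Log2 fold change of each KO line against wild type (x) for each gene (y) at days 0, 3 and 10; squares Quaking KO, triangles the Sam68-labelled line, filled where called and open where not, bars the 95% interval. At day 0 nearly all values lie left of 0, at day 3 most lie near it, and at day 10 only 6 genes could be tested.

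At day 10, 6 members passed the filter; Sycp1, Slc25a31 and Tex101 did not. In Quaking KO the edgeR and DESeq2 fits of that day called none lower (6.71% of all genes) or higher (4.96%). An unadjusted edgeR p under 0.05 was found for 2 of the 6, both higher (Hormad1 and Sycp3). It was found for 5284 of the 20503 genes tested, in either direction. The edgeR fit of all 27 libraries called Hormad1 and Sycp3. In the Sam68-labelled line 3 were called lower, Dppa3, Dazl and Hormad1 (27.8% of all genes), and 1 higher, Sycp3 (22.8%). Hormad1 had 0.144, 0.104 and 0.0816 CPM there against 0.256, 0.296 and 0.336 in wild type (−1.35 ± 0.34, edgeR adjusted p = 0.00649) and 0.642, 0.388 and 0.381 in Quaking KO. The 3 lines did not overlap, with Quaking KO highest and the Sam68-labelled line lowest.

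Sycp3 had 5.44, 6.73 and 6.54 CPM in the Sam68-labelled line against 2.85, 3.15 and 3.43 in wild type, 198% of it and without overlap (1.06 ± 0.13, edgeR adjusted p = 4.25e-05). Chpt1 was lower there (−0.42 ± 0.07). Dppa3 had 0.393, 0.427 and 0.299 CPM against 0.527, 0.974 and 1.15 (−1.17 ± 0.30, edgeR adjusted p = 0.00778). Dazl had 0.380, 0.298 and 0.245 CPM against 0.392, 0.720 and 0.939 (−1.08 ± 0.33, edgeR adjusted p = 0.0186). That Dazl call was lost without replicate 2 or 3 of the Sam68-labelled line (0.0596 and 0.0744) or replicate 3 of wild type (0.0978). Mael and Stk31 had no call in either line, and their libraries overlapped wild type. Extraembryonic endoderm markers summed to 2150 to 2800 CPM in the Sam68-labelled line at day 10, 1450 to 1600 in Quaking KO and 1860 to 2510 in wild type. Most of that was Apob (1580, 953 and 1590 CPM), not called in the Sam68-labelled line (0.07 ± 0.16). Of the 6 markers, 3 were higher and 1 lower in that line (22.8% and 27.8% of all genes). In Quaking KO 2 were lower (6.71% of all genes). The part of these markers in the differences was not tested.

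Whether the KO difference itself changed with the day was tested as an interaction of line and day, on the 18 libraries of a KO line and wild type. A positive value means that the KO level relative to wild type was higher at the later day than at day 0. In Quaking KO 4 members were called higher at day 3 against day 0 (5.18% of all genes): Dppa3 by 2.20 ± 0.37 (edgeR adjusted p = 0.000594), Sycp3 by 0.61 ± 0.12 (0.0026), Mael by 0.64 ± 0.17 (0.0234) and Hormad1 by 0.66 ± 0.20 (0.0475). At day 10 it was 3 (9.33% of all genes), Dppa3 by 2.34 ± 0.36, Hormad1 by 1.17 ± 0.24 and Sycp3 by 0.53 ± 0.14. The Mael and Hormad1 calls at day 3 sat near the threshold: leaving out single libraries of either line lost the Mael call in 8 of 12 cases (0.57 to 0.64, edgeR adjusted p 0.0528 to 0.0767) and the Hormad1 call in 11 of 12 (0.51 to 0.72, edgeR adjusted p 0.0585 to 0.177).

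In the Sam68-labelled line 6 members were called higher at day 3 (13.9% of all genes): Dazl by 1.70 ± 0.20 (edgeR adjusted p = 2.57e-06), Mael by 1.42 ± 0.17, Stk31 by 1.21 ± 0.15, Hormad1 by 0.93 ± 0.21, Sycp1 by 0.86 ± 0.24 and Sycp3 by 0.73 ± 0.10. The median over the 9 members was 0.86, against 0.06 over all genes. At day 10 it was 4 (30.0% of all genes): Sycp3 by 1.83 ± 0.11, Dppa3 by 1.21 ± 0.39, Stk31 by 1.19 ± 0.23 and Mael by 0.96 ± 0.31. With TMM scaling and all 18 libraries, edgeR and DESeq2 called no member lower in the 4 interactions, where edgeR called 3.03% and 5.87% of all genes lower in Quaking KO at days 3 and 10 and 8.44% and 20.3% in the Sam68-labelled line. At an unadjusted p under 0.05 there was 1, Tex101 at day 10 in the Sam68-labelled line (−1.99 ± 0.85), which was called with scaling on protein-coding genes (−2.14) and without replicate 1 of that line or of wild type at day 10. Without that wild-type library Dazl was called lower in Quaking KO at day 10 (−0.75, edgeR adjusted p = 0.0079). The Mael value at day 10 was 0.51 (0.238) without replicate 1 of the Sam68-labelled line at day 10, and Sycp1 at day 3 was 0.74 (0.0598) without replicate 2 of that line at day 3. Interactions at both days share the day 0 libraries with each other and with the day 0 comparison, so they are not separate evidence.

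The members' profiles over the 9 group means were then set beside those of 14396 protein-coding genes that reached 1 CPM in a group, as Pearson correlations of log2(CPM + 1), a description over 9 points that share their libraries. Sycp1 and Slc25a31, which lie on the same chromosome far apart, had r = 0.998 with each other. Gadd45a, which is not a member, was nearly as close to both (0.9961 and 0.9956). The gene most like Slc25a31 was Cyct, the testis form of cytochrome c (r = 0.9985), with 3.15 CPM in wild-type stem cells, 1.89 in Quaking KO and 2.24 in the Sam68-labelled line. The gene most like Stk31 was Tex11, a meiotic crossover gene (r = 0.9965), which stood at 21.6, 16.7 and 15.4 CPM in the same groups. Nearest to Hormad1 was 1700029P11Rik (0.9968), to Dazl Slc34a3, a phosphate transporter (0.9937), to Mael Trap1, a mitochondrial chaperone (0.9947), and to Sycp3 Txnrd1, a thioredoxin reductase (0.9933). Dppa3 had no close match, its best being Msl3l2 at 0.9098. Among the 8 members with a level of at least 1 CPM the 28 pairs ran from 0.159 (Dppa3 and Sycp3) to 0.998, with a median of 0.898.

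Of the 18 nearest protein-coding genes on either side of the members, 17 were tested over the days in wild type, and 11 were higher and 5 lower at day 10 than at day 0, where 41.4% and 39.4% of all genes were. At day 0, 13 were tested: 3 were higher and 3 lower in Quaking KO, about the share of all genes (19.4% and 20.3%), and 2 higher and 7 lower in the Sam68-labelled line (36.5% and 37.9% of all genes).

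Other germline genes with CpG-rich promoters, a list of 30 that holds none of the 9, were tested beside them. Of 28 tested in wild type 20 fell by day 3 and 3 rose, where 30.1% of all genes fell and 30.8% rose, and 23 fell and 3 rose by day 10, against 39.4% and 41.4%. Stra8, the retinoic acid target that starts meiosis, went from 3.70 CPM to 0.00975, which is under the 0.0148 CPM that 3 counts over the group make. Tex14, of the germ cell bridges (−5.06 ± 0.11), and Sohlh2, a germ cell transcription factor (−4.39 ± 0.18), fell next furthest. At day 0, 14 of 27 were lower and 1 higher in Quaking KO (20.3% and 19.4% of all genes), led by Smc1b, the meiotic cohesin subunit (−1.18 ± 0.07), and Tdrd1, a Tudor protein of the small RNA pathway (−1.06 ± 0.08). In the Sam68-labelled line 18 of 27 were lower and 5 higher (37.9% and 36.5% of all genes). Its largest changes were Fkbp6 (−1.99 ± 0.09), Sohlh2 (−1.69 ± 0.09) and Hormad2, the partner of Hormad1, which rose (1.40 ± 0.07). At day 3, 14 of 27 were higher and 3 lower in the Sam68-labelled line (36.0% and 37.1% of all genes), with Ctcfl, a germ cell relative of CTCF, at 0.430 CPM against 0.0842 (2.25 ± 0.37). The interaction of day 3 against day 0 was called higher in 18 of 28 and lower in 1 (Tex15, −1.68), against 13.9% and 8.44% of all genes. In Quaking KO that interaction was higher in 9 of 28, against 5.18% of all genes.

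Of 11 genes that write, erase or help maintain DNA methylation, the last group being Uhrf1, Zfp57 and Trim28, 7 fell and 2 rose by day 3 in wild type, where 30.1% of all genes fell and 30.8% rose. Uhrf1, Zfp57 and Trim28 were among the 7. Dnmt3b, a de novo methyltransferase, went from 198 to 1620 CPM, and Tet2, which oxidises methylated cytosine, from 326 to 15.6 CPM (−4.48 ± 0.11). Dnmt3l, the cofactor of the de novo enzymes, went from 350 to 22.5 CPM (−4.06 ± 0.11). In stem cells of Quaking KO Dnmt3b (−0.56 ± 0.03) and Dnmt3a (−0.52 ± 0.03) were lower and Tet2 higher (0.44 ± 0.03), with 5 higher and 4 lower in all (19.4% and 20.3% of all genes). In the Sam68-labelled line 5 were higher and 4 lower at day 0, close to the shares of all genes (36.5% and 37.9%), with Dnmt3a lower (−0.65 ± 0.03) and Zfp57 (0.49 ± 0.05) and Tet3 (0.48 ± 0.05) higher. At day 3, 8 were higher and 1 lower there, against 36.0% and 37.1% of all genes.

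Of the 19 genes for the complex of MGA, MAX and E2F6 and for histone methylation, 4 rose and 6 fell in wild type by day 3. Of all genes tested, 30.8% rose and 30.1% fell. Yaf2, a Polycomb-associated subunit, went up most (1.78 ± 0.08), and by day 10 L3mbtl2, a subunit of that complex, had fallen most (−2.31 ± 0.06). In Quaking KO stem cells 8 were higher and 7 lower (19.4% and 20.3% of all genes), with Yaf2 at −0.72 ± 0.09 and Hdac2 at 0.37 ± 0.03, and in the Sam68-labelled line 4 were higher and 13 lower (36.5% and 37.9% of all genes), none of those lower by more than 0.36 on the log2 scale. Of 11 primordial germ cell markers tested, 7 were higher and 4 lower in Quaking KO at day 0 (19.4% and 20.3% of all genes), and 2 higher and 7 lower in the Sam68-labelled line (36.5% and 37.9%). The most changed of them, Sox17, also an endoderm factor, was lower in Quaking KO (−1.15 ± 0.13) and higher in the Sam68-labelled line (2.28 ± 0.09), and Nanos3, needed for germ cell survival, split the same way (−0.74 ± 0.13 and 1.34 ± 0.10). Tfap2c, a germ cell specifier, was lower in both (−0.86 ± 0.06 and −1.07 ± 0.06). Nanos2, a marker of male germ cells, was at 0 counts in 5 of the 9 groups and had at most 0.0192 CPM in the rest, where 3 counts over a group correspond to 0.0132 to 0.0169 CPM.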

How the data were processed

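Total RNA of 27 samples was depleted of ribosomal RNA and sequenced as stranded paired-end libraries, per the labels' protocols. Reads were demultiplexed with bcl2fastq 2.17.1.14 and aligned to GRCm38/mm10 with STAR 2.5.3a, per the submitters' processing notes. The authors deposited raw read counts per Ensembl gene, 1 file a library; the counting program, its strand setting and the annotation are not stated in what was used here. Of 51826 identifiers 51633 (99.6%) matched GENCODE M21 on GRCm38, without version numbers. The members and gene lists were chosen with earlier results of these data known.

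CPM is the usual scaling of a count by its library's total, here 56461674 to 77257496 counts over all genes. Tests used edgeR 4.0.16 quasi-likelihood fits in R 4.3.3 with limma 3.58.1, filterByExpr (minimum count 10, total 15), TMM scaling and Benjamini-Hochberg adjustment over all genes tested, with calls at 0.05: 1 fit per day (9 libraries), 1 per line (9), and 1 interaction fit per KO line (18). SE is the log2 fold change divided by the root of F. The 95% intervals are the log2 fold change ± 1.96 SE. That multiplier takes no account of the small number of libraries, so the intervals can be too narrow. DESeq2 1.42.0 and the other alternatives are in the closing section, and the fits were tested on simulated data. Tables and figures used Python 3.11.15, pandas 2.3.3 and matplotlib 3.10.9. Named genes are the 9 members, up to 3 called genes of each list with the largest change in a comparison, the 3 genes most alike to each member, the nearest neighbours, and genes that overlap a member; Dnmt3b, Uhrf1, Zfp57 and Trim28 in wild type over the days, Tex15 and Nanos2 were chosen after their values were seen.

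Replicate numbers recur in all groups. Over 14367 genes, deviations of wild-type and Quaking KO libraries with the same number correlated at 0.527, 0.172 and 0.124 on day 3. Replicates 1 and 2 of wild type correlated best with their own number there, and replicate 3 did not. Whether the numbers pair those samples is thus not settled, and the labels do not state it. On the other days and for the Sam68-labelled line not every pair passed 0.1. Between day 0 and later days, Quaking KO libraries correlated best with their own number in 5 of 6 cases (0.039 to 0.282). In wild type it was 3 of 6 (−0.099 to 0.316), and in the Sam68-labelled line 1 of 6 (−0.091 to 0.042). The main fits used no replicate block. No pair of replicates agreed within counting noise (chi-square per gene 3.37 to 204.96). At day 10 the common biological coefficient of variation was 10.6%, against 3.6% at day 0 and 5.5% at day 3. Floors of 3 counts over a group cover counting error only.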

Additional observations from a re-analysis of the deposited data

Results flagged for a closer look

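The KO effect on a member differed between days in 17 of the tests of line by day, which covered 9 members in 4 interactions. All values are log2 differences of the KO against wild-type change, later day against day 0. They are positive where the KO level relative to wild type was higher later. For Quaking KO at day 3 these were Dppa3 (2.20), Mael (0.64), Sycp3 (0.61) and Hormad1 (0.66), and at day 10 Dppa3 (2.34), Sycp3 (0.53) and Hormad1 (1.17). For the Sam68-labelled line at day 3 they were Dazl (1.70), Mael (1.42), Sycp1 (0.86), Sycp3 (0.73), Hormad1 (0.93) and Stk31 (1.21), and at day 10 Dppa3 (1.21), Mael (0.96), Sycp3 (1.83) and Stk31 (1.19). All 17 are positive, and all share the day 0 libraries in which most members were lower in the KO lines. Of all genes, 5.18% and 9.33% were called higher in Quaking KO at days 3 and 10. In the Sam68-labelled line it was 13.9% and 30.0%, so its 4 of 9 at day 10 stand against a high share. Groups of 3 libraries are too small for a test of a single library that stands apart.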

How the results depend on the processing

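Of the called values of single members, 557 kept their direction and call under settings that keep all libraries and 5 lost the call; with 1 library left out, 620 kept it, 34 lost it and none reversed. In the fit of all 27 libraries no member was higher in Quaking KO at day 0 (0, against 1), 1 at day 3 and 2 at day 10 (Sycp3 and Hormad1), 4863 genes were called in Quaking KO at day 10 (2392 in the fit of that day), and 5 members were lower in the Sam68-labelled line at day 10. With a replicate block on the 6 libraries compared, 0 members were higher in Quaking KO at day 0, and 2433 genes were called at day 3 (1381 without the block) and 1531 at day 10; the block on the 9 libraries of day 3 gave 1891. At day 3 the block left 2 members called higher, and it lost the Hormad1 interaction of Quaking KO (edgeR adjusted p = 0.0517). Scaling on protein-coding genes gave 1 lower member in the Sam68-labelled interaction at day 10 (Tex101, −2.14). With 1 library left out, Quaking KO calls ran from 749 (without wild type replicate 2) to 1641 genes at day 3 and from 1399 (without Quaking KO replicate 2) to 3139 at day 10. Members called higher in Quaking KO ran from 0 to 1 at day 0, stayed at 1 at day 3, ran from 2 to 3 in its day 3 interaction and from 0 to 1 at day 10 against day 0; members called lower ran from 0 to 1 in the day 10 interaction of each line. Reversals touched uncalled values only: Tex101 in the Sam68-labelled line at day 0 (0.01 with protein-coding scaling, −0.16 to 0.05 with 1 library left out) and in Quaking KO (−0.13 to 0.04), Sycp3 in the Sam68-labelled line at day 3 (−0.03 with no filter, −0.01 in the fit of 27, −0.03 to 0.02), Sycp1 there (−0.06 to 0.19), Sycp3 in Quaking KO at day 3 against day 0 (−0.0 with protein-coding scaling, −0.01 in the fit of 27, −0.01 to 0.12), Dppa3 there (−0.01 to 0.12), the Mael interaction of Quaking KO at day 10 (−0.41 to 0.29) and the Hormad1 one of the Sam68-labelled line (−0.40 to 0.02). The cause of these changes was not tested. With TMM in place of total-count scaling 20 of 81 group means moved by over 1 SD. Depth limits Tex101, Sycp1 and Slc25a31 at day 10.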

Other observations

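Gm17060, a processed pseudogene inside Stk31 on the other strand, stood at 1.15 CPM in wild-type stem cells and at 0.0508 in the Sam68-labelled ones (log2 fold change −4.58 ± 0.31, edgeR adjusted p = 1.82e-10), and was lower in that line at days 3 and 10 too (−5.19 and −5.80), while Stk31 itself changed by −0.72 at day 0.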
